A study of Mus musculus with 24 samples.

Results

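The Hedgehog pathway genes described here are Shh, Ptch1, Smo, Gli1, Gli2, Gli3, Hhip and Sufu. They were chosen by gene symbol, and all 8 were found among the 22667 genes listed and among the 16627 that passed the filter on low counts. Mouse cells in culture were sampled at 4 stages on the way to neurons for sequencing of poly(A)+ RNA, with 3 replicates per genotype and stage and 24 samples in all. The cells were embryonic stem cells (ESCs) kept in medium with LIF and inhibitors of MEK and GSK3, neural progenitor cells (NPCs) at day 7 of serum-free monolayer culture, cells that carry polysialylated NCAM, a neural adhesion molecule, isolated with beads at day 10 (PSA-NCAM+ cells), and neurons replated at day 7 and kept for 14 more days with ascorbic acid and cAMP. The labels list no Hedgehog protein or agonist in these media. WT cells carried the unchanged alleles of Polr2a, which encodes the largest subunit of RNA polymerase II, and slow/slow cells carried an arginine-to-histidine substitution in both alleles, introduced in turn by gene targeting in 1 ESC line. How many targeted clones the slow/slow samples came from is not given in the sources used here, so clone and genotype cannot be told apart. For the NPC and PSA-NCAM+ stages the WT cells had been plated at 10000 and the slow/slow cells at 30000 per cm2, so plating density and genotype cannot be told apart either. The neurons were replated from day 7 monolayers for which no plating density is listed, so the same limit may hold for them.

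Hedgehog proteins are secreted signals that pattern the embryo. Shh, released by the notochord and the floor plate, sets the identity of ventral cells in the neural tube. In its absence the receptor Ptch1 holds back the membrane protein Smo, and the Gli factors are kept in the cytoplasm by Sufu or, Gli3 above all, cut into repressors. When Shh binds Ptch1, Smo acts through the primary cilium to turn Gli2 and Gli3 into activators. Ptch1, Gli1 and Hhip, a membrane protein that binds and sequesters the ligand, are themselves transcribed in response and serve as readouts of the pathway.

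Each library held 32974432 to 104466886 reads assigned to genes. Values below are counts scaled to library size (CPM) by the trimmed mean of M values. Within groups, replicates correlated at 0.994 or more over log2 CPM outside the PSA-NCAM+ stage, where the lowest correlation was 0.978 in WT and 0.960 in slow/slow cells and replicate 1 of both genotypes was the least like the others. Some values at that stage are therefore also given without replicate 1 of 1 or both genotypes. Among the genotype differences of the members this was done for Shh, Hhip and Gli3. The summed level of 5 markers of pluripotent cells was 5273 to 5734 CPM in WT ESCs, 1887 to 1961 in WT NPCs, 1114 to 1232 in slow/slow NPCs and 75.5 to 127 CPM in neurons of either genotype. In PSA-NCAM+ cells it was 1295 to 1779 CPM (WT) and 678 to 705 CPM (slow/slow), with 3 of the 5 lower in slow/slow cells and none higher. The summed level of 6 neuronal markers was already 41.0 to 52.8 (WT) and 112 to 142 CPM (slow/slow) in ESCs. It was 27.5 to 30.3 (WT) and 102 to 123 CPM (slow/slow) in NPCs, 30.4 to 44.7 and 66.1 to 281 CPM in PSA-NCAM+ cells, and 3107 to 3318 and 2810 to 3020 CPM in neurons. In NPCs 3 of the 6 were higher in slow/slow cells and none was lower. Tubb3 alone had WT and slow/slow means of 40.9 and 117.5 CPM in ESCs and 15.8 and 96.3 CPM in NPCs. In neurons 3 of these 6 were lower in slow/slow cells and none was higher: the synaptic genes Snap25 (WT and slow/slow means of 208 and 60.2 CPM) and Syp (285 and 90.4 CPM), and Rbfox3 (36.6 and 19.7 CPM), a marker of mature neurons. Of 5 markers of neural progenitors, 4 had counts (Sox1 was not among them) and summed to 272 to 289 CPM in WT NPCs, below the 399.6 to 406.5 CPM of WT ESCs, which also express the listed gene Sox2, and to 339 to 369 CPM in slow/slow NPCs. The 3 genes that make polysialylated NCAM summed to 26.7 to 31.1 (WT) and 36.8 to 61.9 CPM (slow/slow) in PSA-NCAM+ cells, against 715 to 745 (WT) and 395 to 418 CPM (slow/slow) in neurons, where 2 of the 3 were lower in slow/slow cells. Mesenchyme markers summed to 228 to 284 CPM in neurons of WT and 535.5 to 567 CPM in those of slow/slow genotype, with 4 of 5 higher. Astrocyte markers summed to 166 to 204.5 (WT) and 84.5 to 96.2 CPM (slow/slow) in neurons, with 3 of the 4 tested lower and 1 higher. Endoderm markers summed to 32.3 to 36.7 and 39.1 to 53.1 CPM there, with 5 of 6 higher and 1 lower, the last being Foxa1 (24.1 and 12.96 CPM). Markers of the oligodendrocyte lineage summed to 67.7 to 90.2 and 47.2 to 71.2 CPM, with 3 of 5 higher and 2 lower, the latter being Olig1 (38.4 and 0.218 CPM) and Olig2. Neurons of the genotypes thus differed in markers of several cell types. Cells labelled NPCs and PSA-NCAM+ cells thus still held transcripts of pluripotent cells. In the slow/slow genotype the summed neuronal markers were higher than in WT at these stages, as they also were in ESCs. The part of pluripotent or neuronal cells in the results was not tested. Fewer cells of a type and less RNA per cell cannot be told apart in such bulk samples.

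In the GRCm38 annotation of GENCODE, Shh (ENSMUSG00000002633) lies on chromosome 5 from 28456815 to 28467256, Ptch1 (ENSMUSG00000021466) on chromosome 13 from 63508328 to 63573598, Smo (ENSMUSG00000001761) on chromosome 6 from 29735503 to 29761365 and Sufu (ENSMUSG00000025231) on chromosome 19 from 46396896 to 46488804. Gli1 (ENSMUSG00000025407) lies on chromosome 10 from 127329882 to 127341974, Gli2 (ENSMUSG00000048402) on chromosome 1 from 118834132 to 119053619, Gli3 (ENSMUSG00000021318) on chromosome 13 from 15463235 to 15730026 and Hhip (ENSMUSG00000064325) on chromosome 8 from 79965851 to 80058006. Gene lengths ran from 10.4 kb for Shh and 12.1 kb for Gli1 to 219.5 kb for Gli2 and 266.8 kb for Gli3. Shh, Gli1, Gli3 and Hhip share exonic bases with genes on the other strand, among them 62 bases of Gli1 with the coding gene Arhgap9. The sources used here do not say whether strand entered the counting, and reads from such overlaps are uncertain.

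On the length-corrected scale of the authors' mean RPKM, Gli2 was the most abundant of the 8 genes in WT ESCs with 16.98, ahead of Sufu with 9.56 and Ptch1 with 8.49. Smo led in WT NPCs with 20.1 and in WT PSA-NCAM+ cells with 19.9. In WT neurons the ligand itself came first, with a mean RPKM of 57.8 for Shh against 32.6 for Smo and 28.4 for Ptch1. In slow/slow neurons the order was Smo with 49.1, Ptch1 with 31.4, Sufu with 17.9, Gli3 with 13.4 and only then Shh with 11.98. Hhip was among the 3 least abundant of the 8 genes in every group, between 0.393 and 2.98 RPKM. These means were deposited without a spread.

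The first question was which of these genes differed between slow/slow and WT cells at each stage. From the NPC stage on, Smo, Gli2 and Gli3 were higher in slow/slow cells at every stage, and Sufu was so in NPCs and PSA-NCAM+ cells but did not pass in neurons. In PSA-NCAM+ cells the genotypes overlapped for Gli2, Gli3 and Sufu, and none of these genes passed in the fit of that stage alone. The ligand Shh was higher until it turned lower in neurons. Of the response genes, Ptch1 passed in PSA-NCAM+ cells alone, and the direction of Gli1 and Hhip changed between stages. In ESCs 3 of 8 members passed the test, all higher in slow/slow cells (Gli1, Gli3 and Hhip), where 40.4% of all genes tested did so in either direction. In NPCs 6 passed, with Shh, Smo, Gli2, Gli3 and Sufu higher and Gli1 lower, against a background of 56.7%. In PSA-NCAM+ cells 7 passed, with Hhip lower and the rest other than Gli1 higher, against 56.7%. In neurons 6 passed, with Shh lower and Smo, Gli1, Gli2, Gli3 and Hhip higher, against 51.9%. The median log2 change of the 8 members was 0.23, 0.75, 0.89 and 0.50 in the order of the stages, and that of all genes tested was -0.022, 0.0072, -0.0071 and -0.055. The main fit took 1 estimate of the spread of each gene from all 8 groups, not from a single stage. Fitted to the samples of the stage alone, 2 of 8 members passed in PSA-NCAM+ cells and 5 of 8 in ESCs, and a minimum change of 2-fold left 1 member at the NPC, 3 at the PSA-NCAM+ and 2 at the neuron stage. The share of all genes is not given for these or the other alternatives, so their counts have no background beside them. Same-numbered samples of the genotypes deviated from their group means in a similar way in PSA-NCAM+ cells, where replicate 1 stood apart in both. Whether they were paired cannot be told. With the replicate block 7 members passed there as well.

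**Figure D1:**
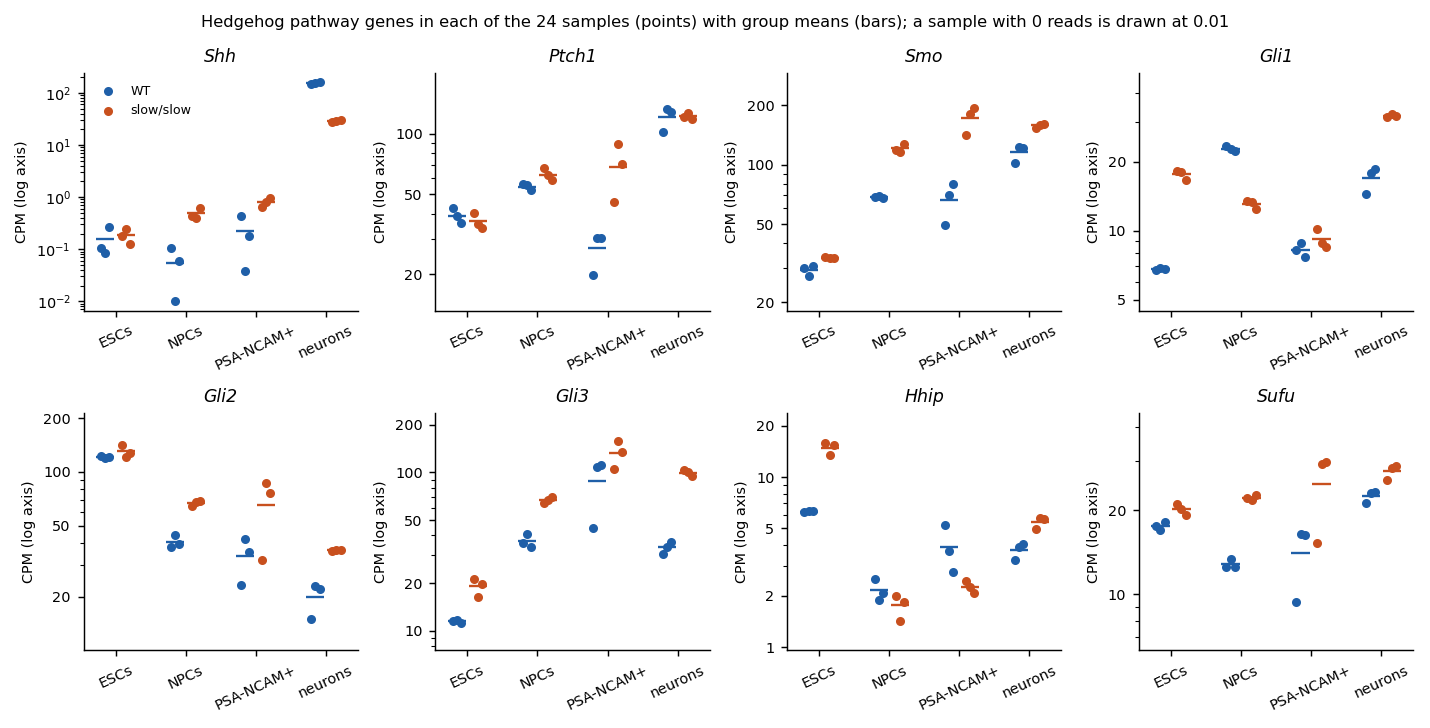
Scaled counts (CPM, log axis) of the 8 genes in each of the 24 samples, by stage, with WT samples in blue and slow/slow samples in orange. Points are replicates and bars are group means, and Shh in WT neurons, at 144.5 to 158 CPM, stands above slow/slow neurons and above every earlier stage.

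Shh, the ligand, was nearly absent until the neuron stage and was then 5.30-fold higher in WT than in slow/slow neurons. It stood at 0.106, 0.0861 and 0.2695 CPM in the WT replicates and 0.181, 0.245 and 0.124 CPM in the slow/slow replicates in ESCs, which is 3 to 15 reads per library. In NPCs it stood at 0.104, 0 and 0.05999 CPM in the WT replicates and 0.4399, 0.406 and 0.616 CPM in the slow/slow replicates, where the WT libraries held 5, 0 and 4 reads and the slow/slow libraries 34, 17 and 25. The ESC ranges overlapped and the NPC ranges did not. In PSA-NCAM+ cells Shh stood at 0.4396, 0.0389 and 0.179 CPM in the WT replicates and 0.633, 0.789 and 0.9499 CPM in the slow/slow replicates, without overlap. In neurons it stood at 144.5, 157 and 158 CPM in the WT replicates and 27.4, 28.5 and 30.7 CPM in the slow/slow replicates, with all 3 WT values far above all 3 slow/slow values. The direction of the difference therefore changed between stages. The fitted log2 change from WT to slow/slow was 0.25 ± 0.63 (SE), adjusted p = 0.789, for ESCs and 3.21 ± 0.62 (SE), adjusted p = 0.000218, for NPCs, followed by 1.71 ± 0.40 (SE), adjusted p = 0.0012, for PSA-NCAM+ cells and -2.41 ± 0.27 (SE), adjusted p = 4.48e-07, for neurons. The NPC and PSA-NCAM+ changes concern levels under 1 CPM. Without WT replicate 1 the PSA-NCAM+ value was 2.79 (adjusted p = 3.36e-05), without replicate 1 of both genotypes it was 2.90 (adjusted p = 7.84e-07), and in the fit of that stage alone its adjusted p was 0.104.

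Markers of the floor plate and the notochord, the tissues that make Shh in the embryo, moved in the same direction in neurons. Summed over 5 genes, they reached 488 to 577 CPM in WT neurons but 152 to 179.7 CPM in those of the slow/slow genotype. The WT and slow/slow ranges were 20.6 to 21.8 and 15.9 to 18.2 CPM in NPCs, and 24.7 to 44.3 and 15.1 to 35.8 CPM in PSA-NCAM+ cells. At each of these stages 2 of the 5 were higher in slow/slow cells (T and Spon1) and 1 was lower (Chrd). In NPCs the WT and slow/slow means were 0.691 and 3.89 CPM for Spon1, 0.451 and 0.821 CPM for T and 11.2 and 3.75 CPM for Chrd. In neurons 4 of the 5 were lower in slow/slow cells and none was higher. The transcription factor T (brachyury) had WT and slow/slow means of 76.8 and 6.97 CPM in neurons, the notochord factor Noto 6.803 and 0.372 CPM, the floor plate gene Spon1 378 and 125.5 CPM, and Foxa2 42.8 and 19.3 CPM. Chrd, at 15.0 and 11.5 CPM, did not pass the test. None of the 5 was at 0 in all libraries of a group. The part of such cells in the level of Shh was not tested.

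Hhip, which binds Hedgehog proteins at the cell surface, had its highest level in slow/slow ESCs. It stood at 6.21, 6.28 and 6.29 CPM in the WT replicates and 15.8, 13.4 and 15.4 CPM in the slow/slow replicates in ESCs and at 2.52, 1.902 and 2.08 CPM in the WT replicates and 2.005, 1.43 and 1.85 CPM in the slow/slow replicates in NPCs. The genotypes were fully apart in ESCs and overlapped in NPCs. It stood at 5.19, 3.66 and 2.77 CPM in the WT replicates and 2.45, 2.26 and 2.08 CPM in the slow/slow replicates in PSA-NCAM+ cells and at 3.24, 3.9 and 4.05 CPM in the WT replicates and 4.95, 5.73 and 5.67 CPM in the slow/slow replicates in neurons, with slow/slow cells below WT in the former and above in the latter and no overlap at either stage. The log2 changes were 1.25 ± 0.18 (SE), adjusted p = 1.53e-05, for ESCs and -0.29 ± 0.19 (SE), adjusted p = 0.205, for NPCs, followed by -0.78 ± 0.18 (SE), adjusted p = 0.00128, for PSA-NCAM+ cells and 0.54 ± 0.18 (SE), adjusted p = 0.0162, for neurons. The PSA-NCAM+ value was -0.50 (adjusted p = 0.0152) without WT replicate 1, and its adjusted p was 0.0952 in the fit of that stage alone. The call in neurons was lost without WT replicate 1 (adjusted p = 0.0795) and without slow/slow replicate 2 (adjusted p = 0.0515). Of the 865 genes tested on chromosome 8, where Hhip lies, 55.0% were higher in slow/slow ESCs and the median log2 change over the chromosome was 0.45, 0.49, 0.46 and 0.44 in the order of the stages. The part of that shift in the values of Hhip was not tested.

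Ptch1, the receptor, stood at 42.6, 38.8 and 35.9 CPM in the WT replicates and 40.5, 35.6 and 33.9 CPM in the slow/slow replicates in ESCs and at 55.9, 55.3 and 52.5 CPM in the WT replicates and 67.4, 61.95 and 58.5 CPM in the slow/slow replicates in NPCs. The genotypes overlapped in ESCs, and in NPCs the slow/slow values lay just above the WT values without passing the test. In PSA-NCAM+ cells it stood at 19.8, 30.5 and 30.4 CPM in the WT replicates and 45.9, 88.4 and 70.2 CPM in the slow/slow replicates, and in neurons at 102, 133 and 128 CPM in the WT replicates and 120.3, 127 and 118 CPM in the slow/slow replicates. Slow/slow PSA-NCAM+ cells were thus above WT in all replicates, by 2.53-fold in the mean, and the neurons overlapped. The log2 changes were -0.092 ± 0.18 (SE), adjusted p = 0.717, for ESCs and 0.20 ± 0.18 (SE), adjusted p = 0.349, for NPCs, followed by 1.34 ± 0.18 (SE), adjusted p = 3.12e-06, for PSA-NCAM+ cells and 0.012 ± 0.17 (SE), adjusted p = 0.963, for neurons. Between the genotypes of neurons, in which Shh differed 5.30-fold, the mean level of Ptch1 was 121 (WT) and 122 CPM (slow/slow).

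Smo, the transducer that Ptch1 holds back, rose from ESCs to NPCs and from NPCs to neurons and was higher in slow/slow cells at the later 3 stages. It stood at 29.8, 27.3 and 30.7 CPM in the WT replicates and 33.9, 33.4 and 33.7 CPM in the slow/slow replicates in ESCs and at 68.2, 69.4 and 67.8 CPM in the WT replicates and 119, 116 and 128 CPM in the slow/slow replicates in NPCs. The slow/slow values lay above the WT values at both stages, narrowly in ESCs and clearly in NPCs. It stood at 49.2, 70.5 and 79.7 CPM in the WT replicates and 142, 180.1 and 194 CPM in the slow/slow replicates in PSA-NCAM+ cells and at 102, 123 and 122 CPM in the WT replicates and 154, 159.7 and 161.5 CPM in the slow/slow replicates in neurons, again without overlap. The log2 changes were 0.20 ± 0.13 (SE), adjusted p = 0.236, for ESCs and 0.82 ± 0.13 (SE), adjusted p = 2.37e-05, for NPCs, followed by 1.37 ± 0.13 (SE), adjusted p = 4.16e-08, for PSA-NCAM+ cells and 0.45 ± 0.13 (SE), adjusted p = 0.00568, for neurons. In order of group means Smo ran from WT ESCs over slow/slow ESCs, WT PSA-NCAM+ cells, WT NPCs, WT neurons, slow/slow NPCs and slow/slow neurons to slow/slow PSA-NCAM+ cells. Of these neighbours, WT PSA-NCAM+ cells and WT NPCs, WT neurons and slow/slow NPCs, and the highest pair shared part of their ranges.

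Gli1, an activator whose own gene is switched on by the pathway, took a different course in each genotype. It stood at 6.73, 6.89 and 6.85 CPM in the WT replicates and 18.2, 18.1 and 16.7 CPM in the slow/slow replicates in ESCs and at 23.4, 22.8 and 22.4 CPM in the WT replicates and 13.5, 13.3 and 12.4 CPM in the slow/slow replicates in NPCs. Slow/slow cells were above WT in all ESC replicates and below WT in all NPC replicates. It stood at 8.26, 8.83 and 7.69 CPM in the WT replicates and 10.2, 8.89 and 8.48 CPM in the slow/slow replicates in PSA-NCAM+ cells, where the ranges overlapped, and at 14.5, 17.96 and 18.6 CPM in the WT replicates and 31.4, 32.5 and 31.7 CPM in the slow/slow replicates in neurons, where slow/slow cells were again above. The replicates of Gli1 lay close together, and the log2 changes were 1.37 ± 0.098 (SE), adjusted p = 2.04e-09, for ESCs and -0.81 ± 0.096 (SE), adjusted p = 8.48e-07, for NPCs, followed by 0.15 ± 0.096 (SE), adjusted p = 0.19, for PSA-NCAM+ cells and 0.91 ± 0.095 (SE), adjusted p = 1.69e-07, for neurons. In neurons Gli1 was therefore 1.87-fold higher in the genotype with the lower level of Shh. The highest group mean was that of slow/slow neurons, followed by WT NPCs and slow/slow ESCs, and the lowest was that of WT ESCs.

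Gli2, the main activator, had its highest level in ESCs and fell from there to NPCs and from NPCs to neurons. It stood at 123, 119.6 and 120.5 CPM in the WT replicates and 142, 121 and 128 CPM in the slow/slow replicates in ESCs, where the genotypes overlapped, and at 38.2, 44.5 and 39.6 CPM in the WT replicates and 64.7, 67.6 and 68.8 CPM in the slow/slow replicates in NPCs, where they did not. It stood at 23.4, 41.9 and 35.8 CPM in the WT replicates and 32.2, 86.4 and 76.6 CPM in the slow/slow replicates in PSA-NCAM+ cells and at 15.1, 22.9 and 22.1 CPM in the WT replicates and 36.2, 36.5 and 36.5 CPM in the slow/slow replicates in neurons. Replicate 1 of slow/slow PSA-NCAM+ cells fell within the WT range, whereas all slow/slow neuron samples lay above WT. The log2 changes were 0.11 ± 0.24 (SE), adjusted p = 0.763, for ESCs and 0.72 ± 0.24 (SE), adjusted p = 0.0172, for NPCs, followed by 0.95 ± 0.24 (SE), adjusted p = 0.00253, for PSA-NCAM+ cells and 0.86 ± 0.25 (SE), adjusted p = 0.00608, for neurons. In NPCs the call was lost without WT replicate 1 (adjusted p = 0.0504), and in the fit of the PSA-NCAM+ stage alone the adjusted p was 0.132.

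Gli3, the main source of Gli repressor, was the member that passed the test at all 4 stages, each time higher in slow/slow cells. Smo, Gli2 and Sufu also had higher means in slow/slow cells at all 4 stages, but each passed at fewer. It stood at 11.6, 11.6 and 11.2 CPM in the WT replicates and 21.4, 16.4 and 19.7 CPM in the slow/slow replicates in ESCs and at 35.8, 40.6 and 33.5 CPM in the WT replicates and 63.7, 66.7 and 70.2 CPM in the slow/slow replicates in NPCs, without overlap at either stage. It stood at 44.5, 109 and 112 CPM in the WT replicates and 105.5, 158 and 135 CPM in the slow/slow replicates in PSA-NCAM+ cells and at 30.5, 33.9 and 36.3 CPM in the WT replicates and 103, 99.9 and 94.4 CPM in the slow/slow replicates in neurons. The genotypes overlapped in PSA-NCAM+ cells, where slow/slow replicate 1 lay below 2 of the WT values, and were 2.95-fold apart in neurons. The log2 changes were 0.74 ± 0.23 (SE), adjusted p = 0.0133, for ESCs and 0.87 ± 0.22 (SE), adjusted p = 0.00234, for NPCs, followed by 0.59 ± 0.22 (SE), adjusted p = 0.0259, for PSA-NCAM+ cells and 1.56 ± 0.22 (SE), adjusted p = 7.71e-06, for neurons. The call in PSA-NCAM+ cells was lost under upper-quartile scaling (adjusted p = 0.0548), without WT replicate 1 (0.27, adjusted p = 0.0873), without slow/slow replicate 2 (adjusted p = 0.104) and in the fit of that stage alone (adjusted p = 0.292). Without replicate 1 of both genotypes it was 0.41 (adjusted p = 0.000834).

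Sufu, the inhibitor that binds Gli proteins, varied least across the groups, by 2.16-fold between the lowest and the highest mean. It stood at 17.6, 17.1 and 18.1 CPM in the WT replicates and 21.2, 20.1 and 19.2 CPM in the slow/slow replicates in ESCs and at 12.5, 13.4 and 12.5 CPM in the WT replicates and 22.2, 21.8 and 22.6 CPM in the slow/slow replicates in NPCs. Slow/slow values lay above WT values at both stages, with a wider gap in NPCs. It stood at 9.405, 16.4 and 16.4 CPM in the WT replicates and 15.2, 29.4 and 29.8 CPM in the slow/slow replicates in PSA-NCAM+ cells and at 21.2, 23.1 and 23.3 CPM in the WT replicates and 25.8, 28.3 and 28.97 CPM in the slow/slow replicates in neurons, where the ranges overlapped in the former and not in the latter. The log2 changes were 0.20 ± 0.19 (SE), adjusted p = 0.449, for ESCs and 0.79 ± 0.19 (SE), adjusted p = 0.00186, for NPCs, followed by 0.82 ± 0.19 (SE), adjusted p = 0.00126, for PSA-NCAM+ cells and 0.30 ± 0.19 (SE), adjusted p = 0.205, for neurons. In the fit of the PSA-NCAM+ stage alone the adjusted p was 0.131, and in the fit of the neurons alone Sufu passed (log2 change 0.37, adjusted p = 0.000321).

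**Figure D2:**
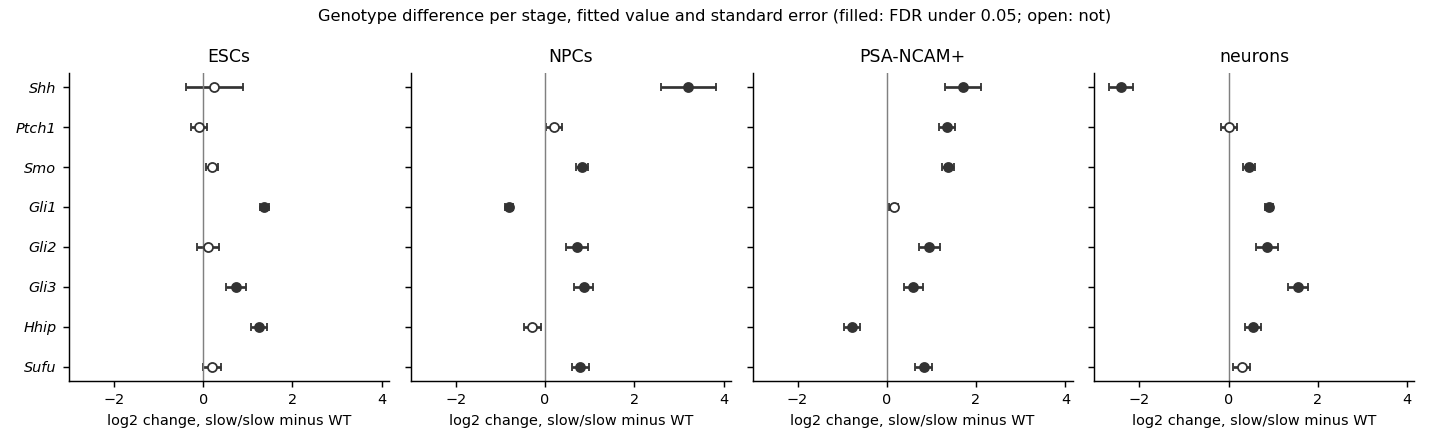
Fitted log2 change from WT to slow/slow cells (x axis) of the 8 genes (y axis) at each stage, with standard errors. Filled points passed the edgeR test at an adjusted p under 0.05 and open points did not, and Shh lies at 3.21 in NPCs and at -2.41 in neurons.

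The second question was how the genes changed from stage to stage within each genotype. From ESCs to NPCs 7 of 8 members changed in WT cells, against 65.6% of all genes, and 7 of 8 in slow/slow cells, against 62.3%. Ptch1, Smo and Gli3 rose in both genotypes, with log2 changes of 0.48, 1.22 and 1.67 in WT and 0.77, 1.85 and 1.80 in slow/slow cells. The rise of Ptch1 in WT cells was lost without WT ESC replicate 2 or 3 or without WT NPC replicate 1 or 2 (adjusted p = 0.0562 to 0.0914). Gli2 and Hhip fell in both, Hhip by 1.53 on the log2 scale in WT and by 3.07 in slow/slow cells. Gli1 rose in WT cells (1.75 ± 0.098 (SE), adjusted p = 8.16e-12) and fell in slow/slow cells (-0.43 ± 0.096 (SE), adjusted p = 0.000554). Sufu fell in WT cells (-0.46 ± 0.19 (SE), adjusted p = 0.0453), a call that was lost without any 1 of the 6 WT samples, under upper-quartile scaling and without the filter on low counts, and Shh rose in slow/slow cells (1.33 ± 0.52 (SE), adjusted p = 0.0323), a call lost without slow/slow replicate 1 or 3 of either stage.

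From NPCs to PSA-NCAM+ cells 5 of 8 members changed in WT cells, against 41.3% of all genes, and 3 of 8 in slow/slow cells, against 42.3%. Gli3 rose and Gli1 fell in both genotypes, Gli3 by a log2 change of 1.27 in WT and 0.99 in slow/slow cells. Ptch1 fell in WT cells (-1.02 ± 0.18 (SE), adjusted p = 0.000156), and its value in slow/slow cells was 0.12 ± 0.18 (SE), adjusted p = 0.596. Hhip and Shh rose in WT cells, the latter at under 1 CPM, and Smo rose in slow/slow cells. Without replicate 1 of both genotypes, 7 of 8 members changed in slow/slow cells, a count for which the share of all genes is not given. The WT value of Shh then no longer passed (log2 change 1.18, adjusted p = 0.181). That call was also lost without WT NPC replicate 2 (adjusted p = 0.0648) and without WT PSA-NCAM+ replicate 1 (adjusted p = 0.231).

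From NPCs to neurons 7 of 8 members changed in WT cells, against 80.2% of all genes, and 7 of 8 in slow/slow cells, against 75%. Shh rose the most, from a mean of 0.0547 to 153 CPM in WT cells (log2 change 11.52 ± 0.47 (SE), adjusted p = 9.28e-15) and from 0.487 to 28.9 CPM in slow/slow cells (5.90 ± 0.36 (SE), adjusted p = 7.96e-12). The WT level in NPCs rests on 9 reads over 3 libraries. Ptch1, Smo and Hhip rose in both genotypes, and Ptch1 did so by 1.15 on the log2 scale in WT and by 0.96 in slow/slow cells. Gli2 fell in both. Gli1 fell in WT cells (-0.43 ± 0.095 (SE), adjusted p = 0.000345) and rose in slow/slow cells (1.29 ± 0.096 (SE), adjusted p = 2.17e-10). Sufu rose in WT cells by 0.82 and Gli3 in slow/slow cells by 0.57, the latter a call that was lost under upper-quartile scaling, without slow/slow NPC replicate 1 or without slow/slow neuron replicate 1 or 2. Upper-quartile scaling shifted the median of all genes by -0.273 in this WT comparison, and the values relative to that scaling were 0.48 for Smo, -0.70 for Gli1, 0.51 for Hhip and 0.54 for Sufu.

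Whether the genotype difference itself changed between stages was tested with interaction terms. Between ESCs and NPCs it differed for 4 of 8 members, against 24.6% of all genes: it moved up for Shh and Smo and down for Gli1 and Hhip. The difference for Gli1 was -2.18 ± 0.14 (SE), adjusted p = 2.5e-09, and that for Hhip was -1.54 ± 0.26 (SE), adjusted p = 0.000257. Between NPCs and PSA-NCAM+ cells it differed for 3 of 8, against 14.6%, and moved up for Ptch1, Smo and Gli1, Ptch1 by 1.15 ± 0.25 (SE), adjusted p = 0.00468. Between NPCs and neurons it differed for 3 of 8, against 55.1%. There it moved down for Shh, by -5.62 ± 0.65 (SE), adjusted p = 6.55e-07, and up for Gli1, by 1.71 ± 0.13 (SE), adjusted p = 4.37e-09, and for Hhip, by 0.83 ± 0.26 (SE), adjusted p = 0.0112. The call for Shh between ESCs and NPCs was lost without WT ESC replicate 3 (adjusted p = 0.137) or WT NPC replicate 2 (adjusted p = 0.0656). The call for Smo between NPCs and PSA-NCAM+ cells, at an adjusted p of 0.0472, was lost without any 1 of the 6 NPC samples and without WT replicate 1 or slow/slow replicate 2 or 3 of the PSA-NCAM+ cells. These comparisons share the NPC samples.

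The other genes of the pathway were described from 6 lists of 70 genes, of which 69 had counts and passed the filter. From each list and stage the genes named are the changed ones with the largest rise and the largest fall among those with a mean of at least 1 CPM in either genotype. In ESCs 28 of the 69 passed the test, 20 higher and 8 lower in slow/slow cells, a share close to the background of 40.4%. In NPCs 47 passed, 35 higher and 12 lower, in PSA-NCAM+ cells 48, 42 higher and 6 lower, and in neurons 52, 25 higher and 27 lower. The background in these stages was 56.7%, 56.7% and 51.9% of all genes tested. By direction, 18.5%, 29.3%, 28.6% and 23.4% of all genes were higher in slow/slow cells at the 4 stages in turn and 21.9%, 27.4%, 28.1% and 28.4% were lower, and the counts of each list below are to be read against these shares. The shares cover all chromosomes. On chromosome 8 alone 55.0%, 56.6%, 56.3% and 55.1% of the genes tested were higher. List genes that may lie on it were not set apart, and the part of that shift in the counts was not tested. With a minimum change of 2-fold the 4 counts were 13, 24, 23 and 25, and in the fit of the PSA-NCAM+ stage alone 21 genes passed. The shares above belong to the main fit, and none is given for these alternatives.

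Of 8 genes of ligands and ligand release, 1, 4, 5 and 7 passed at the 4 stages in turn, the last with 6 of 7 higher in slow/slow cells, and the median log2 change was -0.56, -0.10, 0.12 and 1.21. Scube3, which helps the lipid-modified ligand leave the cell, stood at WT and slow/slow means of 85.01 and 21.2 CPM (log2 change -2.002 ± 0.23 SE, adjusted p = 9.39e-07) in ESCs. The desert hedgehog gene Dhh stood at WT and slow/slow means of 1.59 and 0.225 CPM (log2 change -2.78 ± 0.45 SE, adjusted p = 3e-05) in NPCs, and at WT and slow/slow means of 1.63 and 0.367 CPM (log2 change -2.26 ± 0.42 SE, adjusted p = 0.000121) in PSA-NCAM+ cells. Disp2, a relative of the ligand exporter Disp1, stood at WT and slow/slow means of 0.358 and 1.89 CPM (log2 change 2.36 ± 0.50 SE, adjusted p = 0.000487) in NPCs and at WT and slow/slow means of 169.6 and 82.4 CPM (log2 change -1.04 ± 0.34 SE, adjusted p = 0.0142) in neurons, so that it was higher in slow/slow cells at the former stage and lower at the latter. In PSA-NCAM+ cells Disp2 was higher as well, at WT and slow/slow means of 0.587 and 2.78 CPM (log2 change 2.26 ± 0.43 SE, adjusted p = 0.000179). Its slow/slow replicate 1, at 0.510 CPM, lay within the WT range of 0.389 to 0.700 CPM, and replicates 2 and 3 stood at 3.06 and 4.78 CPM. Scube2 stood at WT and slow/slow means of 2.59 and 11.7 CPM (log2 change 2.17 ± 0.30 SE, adjusted p = 5.01e-06) in neurons. Among the 6 that were higher in slow/slow neurons were both other ligands, against the direction of Shh but at far lower levels. Dhh stood at WT and slow/slow means of 0.1205 and 0.357 CPM (log2 change 1.54 ± 0.49 SE, adjusted p = 0.0128), a call lost without WT replicate 1 (adjusted p = 0.0502), and Ihh at WT and slow/slow means of 0.273 and 1.08 CPM (log2 change 1.95 ± 0.39 SE, adjusted p = 0.000318).

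Of 10 co-receptors and other receptors, 4, 8, 7 and 8 passed at the 4 stages in order, with 2, 6, 7 and 2 of them higher and medians of -0.094, 0.59, 0.60 and -0.37. Boc, a cell surface protein that binds Shh together with Ptch1, was lower in slow/slow ESCs, at WT and slow/slow means of 11.4 and 4.67 CPM (log2 change -1.28 ± 0.22 SE, adjusted p = 9.76e-05), and higher at the other 3 stages. It stood at WT and slow/slow means of 15.9 and 32.3 CPM (log2 change 1.02 ± 0.20 SE, adjusted p = 0.000308) in NPCs, at WT and slow/slow means of 18.6 and 79.1 CPM (log2 change 2.09 ± 0.21 SE, adjusted p = 8.11e-08) in PSA-NCAM+ cells, and at WT and slow/slow means of 29.5 and 149 CPM (log2 change 2.33 ± 0.21 SE, adjusted p = 2.1e-08) in neurons. Lrp2, an endocytic receptor that takes up Shh, was higher in slow/slow NPCs, at WT and slow/slow means of 346 and 695 CPM (log2 change 1.01 ± 0.15 SE, adjusted p = 1.93e-05), and in PSA-NCAM+ cells, at WT and slow/slow means of 141 and 580.4 CPM (log2 change 2.04 ± 0.16 SE, adjusted p = 3.15e-09). It was lower in slow/slow neurons, at WT and slow/slow means of 86.2 and 23.1 CPM (log2 change -1.90 ± 0.16 SE, adjusted p = 9.91e-09).

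Of 24 genes of the cilium and of signal transduction to the Gli proteins, 12, 16, 16 and 14 passed, 9, 10, 15 and 4 of them higher in slow/slow cells, with medians of 0.22, 0.22, 0.30 and -0.18. Evc, a protein at the base of the cilium that binds Smo, rose the most of the list in ESCs, at WT and slow/slow means of 2.91 and 23.6 CPM (log2 change 3.01 ± 0.22 SE, adjusted p = 2.25e-09). It stood at WT and slow/slow means of 10.9 and 35.95 CPM (log2 change 1.73 ± 0.20 SE, adjusted p = 7.37e-07) in NPCs and at WT and slow/slow means of 7.202 and 26.1 CPM (log2 change 1.86 ± 0.20 SE, adjusted p = 2.58e-07) in PSA-NCAM+ cells. Its partner Evc2 rose the most of the list in neurons, at WT and slow/slow means of 7.39 and 25.4 CPM (log2 change 1.78 ± 0.098 SE, adjusted p = 3.69e-11). Btrc, the substrate receptor of a ubiquitin ligase in Gli processing, was lower in slow/slow ESCs at WT and slow/slow means of 71.5 and 43.8 CPM (log2 change -0.71 ± 0.09 SE, adjusted p = 3.42e-06), in NPCs at WT and slow/slow means of 55.8 and 36.7 CPM (log2 change -0.60 ± 0.09 SE, adjusted p = 1.41e-05), and in PSA-NCAM+ cells at WT and slow/slow means of 39.97 and 32.7 CPM (log2 change -0.29 ± 0.09 SE, adjusted p = 0.0105). Kif3a, a motor subunit needed to build cilia, was lower in neurons of the slow/slow genotype, at WT and slow/slow means of 158 and 89.2 CPM (log2 change -0.82 ± 0.076 SE, adjusted p = 3.24e-08).

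Of 10 ventral neural tube genes that Hedgehog signalling induces, 2, 6, 7 and 9 passed, and in neurons 7 of these 9 were lower in slow/slow cells. The medians were -0.17, 0.26, 0.32 and -0.85. Olig2, a factor of motor neuron progenitors, fell the most in neurons, at WT and slow/slow means of 22.8 and 0.882 CPM (log2 change -4.69 ± 0.44 SE, adjusted p = 4.12e-08). The floor plate genes Foxa2, also a marker above, and Ntn1 were among those lower in neurons, Ntn1 at WT and slow/slow means of 839.5 and 303 CPM (log2 change -1.47 ± 0.35 SE, adjusted p = 0.00147). In NPCs and PSA-NCAM+ cells Ntn1 was instead the gene of the list with the largest rise, at WT and slow/slow means of 12.7 and 74.8 CPM (log2 change 2.56 ± 0.37 SE, adjusted p = 9.25e-06) and at WT and slow/slow means of 19.2 and 99.2 CPM (log2 change 2.38 ± 0.36 SE, adjusted p = 1.63e-05). At the latter stage its slow/slow replicate 1 stood at 25.6 CPM and replicates 2 and 3 at 131.5 and 140.5 CPM. Sim1, a factor of a ventral interneuron class, was higher in slow/slow neurons at WT and slow/slow means of 0.937 and 3.77 CPM (log2 change 2.01 ± 0.39 SE, adjusted p = 0.000244). Nkx2-9 stood at WT and slow/slow means of 1.37 and 0.523 CPM (log2 change -1.39 ± 0.31 SE, adjusted p = 0.00123) in ESCs and at WT and slow/slow means of 5.99 and 2.304 CPM (log2 change -1.39 ± 0.26 SE, adjusted p = 0.000174) in PSA-NCAM+ cells, and Nkx6-2 at WT and slow/slow means of 10.2 and 20.2 CPM (log2 change 0.99 ± 0.18 SE, adjusted p = 0.000187) in ESCs.

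Of 8 neural tube genes that Hedgehog signalling represses, 4, 7, 7 and 8 passed, with 3, 7, 7 and 7 of them higher in slow/slow cells and medians of -0.41, 1.53, 1.98 and 2.79. In ESCs the median was thus below 0 although 3 of the 4 changed genes were higher. Pax7, a factor of dorsal progenitors, rose the most in neurons, at WT and slow/slow means of 1.098 and 34.9 CPM (log2 change 4.98 ± 0.35 SE, adjusted p = 9.41e-10). Pax6, a factor of progenitors, was higher in slow/slow NPCs, at WT and slow/slow means of 4.297 and 40.9 CPM (log2 change 3.25 ± 0.26 SE, adjusted p = 4.44e-09), and Dbx1, a factor of progenitors near the middle of the neural tube, in PSA-NCAM+ cells, at WT and slow/slow means of 0.0773 and 3.51 CPM (log2 change 5.50 ± 0.34 SE, adjusted p = 1.74e-10). The dorsal factor Msx2 was higher in slow/slow ESCs, at WT and slow/slow means of 6.77 and 21.9 CPM (log2 change 1.69 ± 0.25 SE, adjusted p = 2.41e-05), and the exception in neurons was Msx1, at WT and slow/slow means of 9.1 and 3.69 CPM (log2 change -1.30 ± 0.27 SE, adjusted p = 0.000383). In neurons, where 51.9% of all genes tested passed (23.4% higher and 28.4% lower in slow/slow cells), 7 of 10 induced genes were lower and 7 of 8 repressed genes higher. Of these, Olig2 is also a marker of the oligodendrocyte lineage, Foxa1 of endoderm, Foxa2 of the floor plate and Pax6 of neural progenitors. Those marker lists differed between the genotypes of neurons as given above, and Foxa1 was the endoderm marker that was lower. The part of a different mix of cells in these counts was not tested. Gli1 and Hhip were higher there, and the value of Ptch1 was 0.012 ± 0.17 (SE). The log2 change of Hhip was 0.54, beside a median of 0.44 over the genes tested on chromosome 8, where Hhip lies. Its call was lost without single replicates of either genotype, as given above. The part of the chromosome's shift in it was not tested.

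Of 10 general targets, 9 had counts, and 5, 6, 6 and 6 passed, with 5, 5, 5 and 4 of them higher and medians of 0.38, 0.52, 0.61 and 0.34. Ccnd2, which drives the cell cycle, rose the most in NPCs, at WT and slow/slow means of 15.9 and 113 CPM (log2 change 2.83 ± 0.11 SE, adjusted p = 1.01e-12), and in PSA-NCAM+ cells, at WT and slow/slow means of 58.1 and 218 CPM (log2 change 1.91 ± 0.11 SE, adjusted p = 5.31e-11). The forkhead gene Foxd1 was higher in slow/slow ESCs, at WT and slow/slow means of 2.21 and 9.58 CPM (log2 change 2.11 ± 0.23 SE, adjusted p = 3.59e-07), and lower in PSA-NCAM+ cells, at WT and slow/slow means of 2.12 and 1.27 CPM (log2 change -0.72 ± 0.23 SE, adjusted p = 0.0103). Bmp4, a dorsalising signal, was higher in slow/slow ESCs, at WT and slow/slow means of 6.77 and 28.1 CPM (log2 change 2.06 ± 0.40 SE, adjusted p = 0.000352), and lower in slow/slow NPCs at WT and slow/slow means of 12.2 and 5.37 CPM (log2 change -1.18 ± 0.39 SE, adjusted p = 0.0153). The falls of Dhh, Btrc and Foxd1 and the rise of Disp2 in PSA-NCAM+ cells did not pass in the fit of that stage alone (adjusted p = 0.0514 to 0.221), and that of Bmp4 in NPCs was lost without slow/slow NPC replicate 2 (adjusted p = 0.0691). In neurons the repressor gene Prdm1 was higher at WT and slow/slow means of 1.17 and 4.12 CPM (log2 change 1.81 ± 0.21 SE, adjusted p = 8.2e-07), and the survival gene Bcl2 was lower at WT and slow/slow means of 45.1 and 30.8 CPM (log2 change -0.55 ± 0.18 SE, adjusted p = 0.0139), a call lost under upper-quartile scaling (adjusted p = 0.0661) and without WT replicate 2 (adjusted p = 0.0512).

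**Figure D3:**
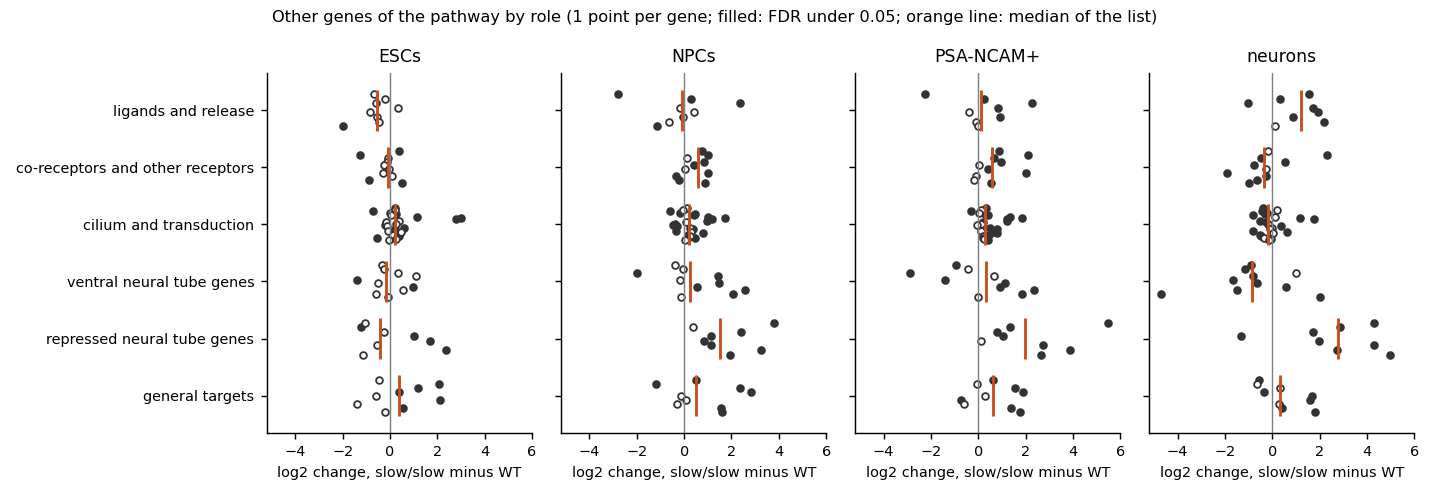
Log2 change from WT to slow/slow cells (x axis) of 69 other pathway genes, 1 point per gene, in 6 lists (y axis) at each stage, with filled points for an adjusted p under 0.05. The orange line is the list's median, which lies at 2.79 for the repressed genes and at -0.85 for the ventral genes in neurons.

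Over the 24 samples the log2 CPM of Smo and Gli3 correlated most among the members (Pearson r = 0.859, Spearman rho = 0.818), followed by Shh and Ptch1 (r = 0.809, rho = 0.748). By Pearson r the lowest were Hhip with Smo (r = -0.624, rho = -0.487) and Shh with Gli2 (r = -0.602, rho = -0.51), and by Spearman rho the lowest was Gli3 with Hhip (r = -0.562, rho = -0.542). Gli1 and Shh stood at r = 0.418 and rho = 0.24. The samples share stages, genotypes and a common scaling, and no test was made of these values. The genes most like Shh over the same samples were Pafah1b3, Mllt11 and 6330439K17Rik, each with r = 0.981. For Ptch1 they were Pcbp3 (r = 0.963), Jph3 (0.956) and Zfp2 (0.954), for Smo Eml1 (0.99), Rhobtb3 (0.989) and Tmem2 (0.988), and for Gli1 Fuz (0.85), Tmem136 (0.845) and Iqcc (0.828). For Gli2 they were Actl6a (0.981), Isg20l2 (0.976) and Ints9 (0.973), for Gli3 Six2 (0.96), Hmgcll1 (0.946) and Col27a1 (0.945), for Hhip Trps1 (0.944), Cfp (0.914) and Pof1b (0.908), and for Sufu Recql (0.945), Ccnjl (0.938) and Arl6 (0.931). Gli1 was the member with the least similar partners.

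Splicing of the members was compared as percent spliced in (PSI), the share of reads that support inclusion of an exon, retention of an intron or use of a splice site. Past the coverage filters, 71 (ESCs), 96 (NPCs), 97 (PSA-NCAM+ cells) and 102 (neurons) member events were tested. None passed both limits, a difference of more than 10 PSI points and a posterior probability above 0.95, whereas 0.199%, 0.886%, 0.266% and 0.887% of all events did so at the 4 stages in turn. A count of 0 among 71 to 102 events is close to that background. By limma, applied to the logits of inclusion against exclusion reads, 6, 14, 22 and 14 member events had an unadjusted p under 0.05 in the order of the stages, against 8.21%, 14.1%, 7.2% and 17.2% of all events. An adjusted p under 0.05 was reached by 0, 0, 0 and 1 member events, against 0.000875%, 0.263%, 0.00672% and 2.53% of all events, and the member event among them was a 2014-base intron of Ptch1 (adjusted p = 0.043 by limma), named after its values were seen. It was retained in 0.0567% ± 0.0982 (SD, n = 3) of WT and 0.577% ± 0.242 of slow/slow neurons' transcripts. A difference above 10 points was seen in 0, 2, 2 and 0 events, and a posterior above 0.95 in 0, 0, 0 and 1.

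Both forms of a pair of exon starts were used in Sufu in all groups. They lie 3 bases apart on chromosome 19 at 46527649 and 46527652 of mm9, the build of the deposited splicing table. GENCODE transcripts of GRCm38 hold a pair of Sufu exons of the same lengths, 157 and 154 bases, on chromosome 19 from 46453159 and from 46453162 to 46453315, within the coding sequence. The junctions are shown because this event had the largest difference among those of Sufu. The first 12 bases end the preceding exon, and capitals mark the 3 bases that the shorter form lacks.
Sufu, longer form: ccgcacctgcaaCAGgagagagttgacaaa
Sufu, shorter form: ccgcacctgcaagagagagttgacaaa

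The shorter form of Sufu made up 51.2, 66.7 and 61.2% of the reads in the WT and 56.7, 65.6 and 45.2% in the slow/slow ESC replicates, and 59.6, 62.3 and 70.1% and 52.1, 60.3 and 52.9% in NPCs. It made up 50, 61.7 and 49.1% and 78.7, 63.2 and 57.6% in PSA-NCAM+ cells, and 54.1, 57.02 and 56.1% and 52.2, 66.7 and 67.6% in neurons. These shares rest on 27 to 201 reads per sample, and the genotypes overlapped at every stage. The difference from WT to slow/slow was -3.84 points in ESCs and -8.95 in NPCs, but 12.9 in PSA-NCAM+ cells (posterior 0.836) and 6.41 in neurons. Without slow/slow neuron replicate 1 the last was 11.4 points with a posterior of 0.955.

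The largest difference of any member event was in the 299-base intron of Gli1 on chromosome 10 from 126773169 to 126773467 (mm9). It was retained in 23.2, 34.4 and 28% of the WT and 16.1, 23.5 and 5.56% of the slow/slow NPC replicates, a difference of -13.5 points with a posterior of 0.838 at 19 to 88 reads per sample. In PSA-NCAM+ cells it was retained in 16.4, 4.76 and 15.6% and 33.3, 21.3 and 13.04%, with the direction the other way. The other Gli1 intron with a difference above 10 points, 284 bases from 126773785 to 126774068, was retained in 54.5, 55.6 and 57.1% of the WT and 49.2, 33.3 and 50% of the slow/slow NPC replicates (posterior 0.782). The genotypes overlapped in NPCs for the first intron and not for the other. A further Gli1 intron of 902 bases, from 126769722 to 126770623, was chosen after its values were seen. It had a mean retention of 0.790% ± 0.762 (SD, n = 3) in WT and 7.30% ± 3.45 in slow/slow NPCs, a difference of 6.51 points with a posterior of 0.948, and the limma fit gave an adjusted p of 0.0569. In Gli2 the 106-base exon on chromosome 1 from 120786873 to 120786978 had a mean PSI of 88.1 ± 0.717 (SD, n = 3) in WT and 94.6 ± 8.15 in slow/slow ESCs, a difference of 6.46 points that passed both limits (11.1 points, posterior 1) without slow/slow replicate 3. The largest differences in the other members were 4.76 points in Gli3, 3.76 in Ptch1, 2.06 in Smo, 1.06 in Shh and 0.777 in Hhip.

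**Figure D4:**
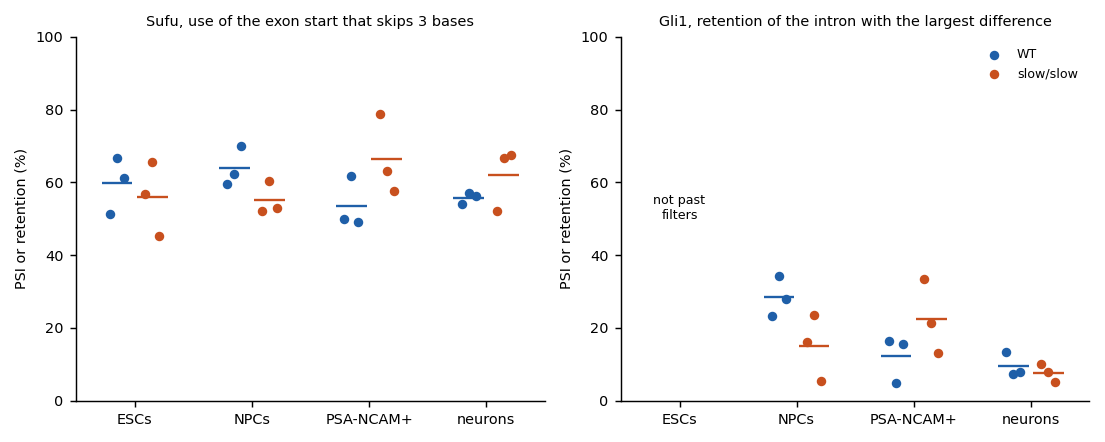
Use of the Sufu exon start that skips 3 bases (left) and retention of the Gli1 intron with the largest difference (right) in percent (y axis, 0 to 100) in each sample by stage, with WT in blue, slow/slow in orange and bars for group means. The Sufu samples lie between 45.2% and 78.7% with overlapping genotypes, and the Gli1 intron did not pass the filters in ESCs.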

How the data were processed

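Poly(A)+ RNA was sequenced as stranded paired-end libraries, and the authors aligned and quantified the reads with vast-tools against mm9. The deposited read counts per gene were used as raw counts for all tests. RPKM values were averaged per group as the authors gave them and served only to rank genes per length. PSI in percent was taken from the deposited splicing table with the authors' read and balance scores. The authors' own log2 fold change and FDR columns and a further splicing table of their comparisons were not used.

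Of 22667 genes listed, 1114 had no values and 21553 had counts. Genes were filtered with filterByExpr, scaled by TMM and fitted in 1 quasi-likelihood model over 8 groups with edgeR 4.0.16 (R 4.3.3, 16 residual degrees of freedom, common biological coefficient of variation 0.164), and Benjamini-Hochberg adjustment was made over all 16627 genes with a threshold of 0.05. Standard errors were the log2 change divided by the square root of F. Alternatives used DESeq2 1.42.0, other scalings, no filter, a minimum change of 2-fold, the samples of 1 stage, a replicate block, and each replicate left out. Leaving out PSA-NCAM+ replicate 1 of both genotypes was chosen after the data were seen. For splicing, a beta posterior was formed from the reads of each replicate, and these were pooled per group and refitted as a beta. Events passed with a difference above 10 PSI points and a posterior above 0.95. A second comparison used limma 3.58.1. Introns needed at least 15 reads and a balance p above 0.05. Events with several splice sites were counted once. The edgeR fit, the posterior calls and the limma fit were each tested on simulated data.

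Deviations from the group means correlated between all same-numbered samples only in the comparison of the genotypes in PSA-NCAM+ cells (0.401 or more in every pair, below 0.1 in at least 1 pair of every other comparison). There the values were 0.54, 0.455 and 0.401 for replicates 1, 2 and 3. The best correlation with another number was -0.372, 0.241 and 0.399. Replicate 1 was the least like the others in both genotypes, so these values cannot show whether the samples were paired. Nothing in the labels says whether replicates were separate cultures. The authors state that the RNA of ESCs, NPCs and neurons came from 3 independent differentiation experiments, and do not name the PSA-NCAM+ cells there. The edgeR p-values rest on 1 estimate of spread per gene, shared by all 8 groups, and not on a stage's own samples. For Gli2 the standard error was 0.24 in PSA-NCAM+ cells and 0.25 in neurons. The SDs of its slow/slow CPM there were 28.9 and 0.139. Standard errors and p-values of the main fit thus do not follow the wider spread at the PSA-NCAM+ stage. The spread between samples may be technical at that stage. The 8 genes, the pathway lists and the markers were chosen with earlier results of these data known. The text names every member, the changed gene of each list and stage with the largest rise and fall at a mean of at least 1 CPM, the 3 genes most correlated with each member (log2 CPM, prior count 2), and the splicing event of each member with the largest difference. Markers and further stages of list genes were named after their values were seen. Some list genes that this rule selects are not reported here. Gene positions are from GRCm38 and splicing positions from mm9, and none was converted.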

Additional observations from a re-analysis of the deposited data

Results flagged for a closer look

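The genotype difference, as the log2 change from WT to slow/slow cells, differed between stages by the edgeR interaction test in 10 results. Between ESCs and NPCs it moved by 2.96 for Shh, 0.62 for Smo, -2.18 for Gli1 and -1.54 for Hhip. Between NPCs and PSA-NCAM+ cells it moved by 1.15 for Ptch1, 0.55 for Smo and 0.96 for Gli1. Between NPCs and neurons it moved by -5.62 for Shh, 1.71 for Gli1 and 0.83 for Hhip. Gli1 differed at all 3 steps, with a fall first and a rise at each of the later steps against NPCs. The WT level of Shh in NPCs rests on 9 reads. For Hhip, the median shift of chromosome 8 lay between 0.44 and 0.49 at all 4 stages, and its part in each stage's value was not tested. No group held enough samples for a search for single outlying samples.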

How the results depend on the processing

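Over all alternatives, 1812 of 1914 values of single genes kept their direction and their side of the threshold, 65 lost the threshold, 22 gained it and 15 changed sign, none of the last in a result that had passed. The counts of genes under the alternatives below are given without the share of all genes, so they are not set against a background. With a minimum change of 2-fold, the members changed between genotypes numbered 1, 3 and 2 at the NPC, PSA-NCAM+ and neuron stages, and the list genes 13, 24, 23 and 25 at the 4 stages in turn. With the same minimum, 3 members changed from NPCs to neurons in WT, 4 from ESCs to NPCs, 0 from NPCs to PSA-NCAM+ cells and 3 from NPCs to neurons in slow/slow cells, and the genotype effect of 1 member differed between NPCs and PSA-NCAM+ cells. With only the samples of the stage, 5 members passed in ESCs, and in PSA-NCAM+ cells 2 members (4 at an unadjusted p under 0.05) and 21 list genes did. Leaving out 1 replicate gave 3 to 5 members changed from NPCs to PSA-NCAM+ cells in slow/slow cells (7 without replicate 1 of both genotypes), and 0 to 1 splicing events of the members in ESCs and in neurons. Sign changes in values that had not passed were as follows. Shh in ESCs became -0.023 without WT replicate 1 and -0.015 without slow/slow replicate 2 (up to 0.94 without WT replicate 3). From NPCs to PSA-NCAM+ cells, Gli2 in slow/slow cells ranged from -0.27 without slow/slow PSA-NCAM+ replicate 2 and became 0.0034 without slow/slow NPC replicate 3, 0.31 without slow/slow PSA-NCAM+ replicate 1 and 0.28 without replicate 1 of both genotypes. Smo in WT cells became 0.13 without WT PSA-NCAM+ replicate 1, alone or in both genotypes, and Ptch1 in slow/slow cells became -0.083 without slow/slow PSA-NCAM+ replicate 2 (up to 0.36 without replicate 1). The genotype effect between these stages became -0.19, -0.093 and -0.097 for Sufu without WT replicate 1, slow/slow replicate 2 or slow/slow replicate 3, and -0.0059 for Gli2 without slow/slow replicate 2 (up to 0.58 without slow/slow replicate 1). Ptch1 in neurons became -0.11 without WT replicate 1 and -0.023 without slow/slow replicate 2 (up to 0.083 without WT replicate 2), and the genotype effect of Gli2 between NPCs and neurons became -0.025 without WT neuron replicate 1 (up to 0.26 without WT neuron replicate 2). The cause of these changes was not tested. Upper-quartile scaling shifted the median of all genes by 0.14 between the genotypes of neurons, where the share of higher genes among all genes called was 45.2% in the main fit and 59.2% under it, by -0.273 from NPCs to neurons in WT cells and by 0.185 in the genotype effect between these stages, where that share was 44.9% and 57.3%. With the replicate block, 7 members and 52 list genes changed between genotypes in PSA-NCAM+ cells, and no call of a member was lost. Same-numbered samples had similar deviations only at that stage, and they are not known to be paired at any stage. In the other stages the block brought in Smo in ESCs (log2 change 0.20, adjusted p = 0.0304), Ptch1 in NPCs (0.20, adjusted p = 0.0489) and Sufu in neurons (0.30, adjusted p = 0.00481, all by edgeR). By limma it brought in a Gli1 intron of 902 bases in NPCs (adjusted p = 0.025), at 6.51 PSI points. The Ptch1 intron that passed limma in neurons without the block (adjusted p = 0.043) did not pass with it (adjusted p = 0.103). Levels of Shh before the neuron stage rest on at most 87 reads per library, and events with under 100 reads cannot show small differences in PSI.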
